A study of Mus musculus with 10 samples.

Results

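Aquaporins, the membrane channels that let water and, in some members, glycerol, urea or ammonia cross the lipid bilayer, were followed in mouse hepatocytes at 4 times of day and along the liver lobule. The members are Aqp8, Aqp9, Aqp11, Aqp4 and Aqp1, which the tables list in lower case as aqp8, aqp9, aqp11, aqp4 and aqp1. They were chosen by name and are all 5 aquaporin entries among the 14811 gene entries of the deposited tables. The 7 other mouse aquaporins that were looked for (Mip, Aqp2, Aqp3, Aqp5, Aqp6, Aqp7 and Aqp12) had 0 gene entries under these names. Of the members, 4 had at least 1 UMI (a count of 1 distinct tagged mRNA molecule), and the same 4 passed the filter on low values, which asked for 3 CPM or more on average (CPM are UMIs scaled to 1e6 UMIs in the library).

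Hepatocytes move water across their whole surface during bile secretion and volume control. In these cells Aqp8 is known from intracellular vesicles, the bile canalicular membrane and mitochondria, and passes water, ammonia and hydrogen peroxide. Aqp9, an aquaglyceroporin of the membrane that faces the blood, takes up glycerol for glucose synthesis and passes urea, and its mRNA is known to be lowered by insulin. Aqp11 lies in the endoplasmic reticulum, and mice without it have vacuolated kidney tubule cells. Aqp4 is best known as the water channel of astrocyte end-feet, and Aqp1 as that of red cells, vessel endothelium and bile duct cells.

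The cells came from C57BL/6 male mice, 3 months old, on regular chow without restriction, anaesthetized with ketamine and xylazine. Their livers were dissociated with collagenase, the hepatocytes were enriched on a Percoll gradient, and the 10x Chromium 3' kit, version 2, was used for the libraries. The 10 libraries are grouped by zeitgeber time (ZT), the hours of the light-dark cycle counted by convention from lights on: ZT0 and ZT12 have 3 libraries each, and ZT6 and ZT18 have 2 each. The labels name no genotype beyond the strain and no treatment beyond diet and anaesthetic for any group, and the number of mice behind a library is not given. The spread between libraries, which sets every standard error below, may therefore be partly technical.

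The tables held 18378 cells and 43375448 UMIs, between 1454623 and 7144803 UMIs per library, with 1588 to 2662 UMIs in the median cell of a library. Within each library, cells were ordered by a score from 8 periportal and 8 pericentral landmark genes (for example Cyp2f2 and Cyp2e1), and the order was cut into 3 equal zones and 8 equal layers, from layer 1 (pericentral, nearest the central vein) to layer 8 (periportal). A zone or layer is thus a rank within its library, and libraries may differ in how they sample the lobule. Glul, a pericentral gene, was at 366 ± 364 CPM at ZT0 and 727 ± 549 CPM at ZT12 (SD over libraries). What such differences add to the time and zone values was not tested. Hepatocyte markers fitted the label: the 6 listed genes summed to 37287 to 68369 CPM per library. Library ZT18B stood apart, with a summed level of 4 haemoglobin genes of 293 CPM against 0.338 to 8.80 CPM in the other 9. Both ZT18 libraries carry the same digit in the name of their sample index, so that index column and ZT18 cannot be told apart. The column names carry no cell barcodes, so barcodes shared by libraries could not be counted.

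Because the members were proposed from a survey of these same data, their differences over time and zone are given as a description, with a standard error (SE) and without a p-value. Only the interaction of zone with time was tested for them. Background rates come from edgeR's quasi-likelihood fit over all genes, at a Benjamini-Hochberg adjusted p under 0.05. A 24-h rhythm was called for 5.13% of 8907 genes. ZT12 differed from ZT0 for 3.44% (1.74% higher and 1.7% lower), and ZT18 from ZT6 for 3.79% (2.35% higher and 1.45% lower). The periportal and pericentral zones differed for 24.6% of 8906 genes (11.9% higher periportal and 12.7% higher pericentral). Of the 4 members tested, 1 was called for rhythm (Aqp8), 2 for ZT12 against ZT0 (Aqp8 lower, Aqp11 higher) and 4 for zone (Aqp9 higher pericentral, the other 3 higher periportal). Nothing is read from these member counts, since the same contrasts led to their choice. With the letter of the library as a block, the ZT12 against ZT0 calls were 503 genes in place of 306. Among the 306 calls 50.65% were higher at ZT12, and with library size alone as the scaling this share was 66.67%, with the median of all genes at 0.13 (log2). Among the zone calls 48.27% were higher periportal, and 27.77% with library size alone, where the median of all genes was -0.11 (log2).

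Of the 4 detected members, Aqp8 had the widest swing over the day. Its gene lies on the forward strand of chromosome 7 (GENCODE M21, GRCm38, chr7:123462291-123468004). At ZT0 the 3 libraries held 143, 314 and 167 CPM, at ZT6 the 2 libraries held 161 and 146 CPM, at ZT12 the 3 libraries held 24.1, 28.8 and 24.6 CPM, and at ZT18 the 2 libraries held 189 and 160 CPM. All 3 libraries at ZT12 lay below each of the other 7, as held for 1.56% of all genes, while ZT0, ZT18 and ZT6 overlapped in that order of their means. The mean was 208 ± 92.8 CPM at ZT0 (SD, n = 3) and 25.8 ± 2.61 CPM at ZT12 (SD, n = 3). In the fit, Aqp8 was lower at ZT12 than at ZT0 by 3.13 ± 0.29 on the log2 scale (SE), a fold of 8.73. Between ZT18 and ZT6 the fitted log2 difference was 0.26 ± 0.32 (SE). The fitted 24-h wave had a log2 amplitude of 1.52 (mean to maximum) and a maximum at ZT23.7.

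Library ZT0B held the most Aqp8, and without it the ZT12 against ZT0 log2 difference was -2.70. The ZT0 mean was above that of ZT18 only with this library. ZT0A and ZT0C held 142.9 and 167.5 CPM, and ZT18A and ZT18B held 188.9 and 160.1 CPM. In the all-gene fit the rhythm call of Aqp8 was lost without ZT0B, ZT12A, ZT12B or ZT12C, each left out in turn, although the amplitude was then still at least 1.33. The ZT12 values rest on 35, 206 and 49 UMIs. Their exact Poisson 95% intervals, which cover counting error only, were 16.8 to 33.5, 25.0 to 33.0 and 18.2 to 32.5 CPM, so the 3 ZT12 libraries agree within counting error.

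The promoter stretches of Aqp8 and Aqp11 are shown because the highest time mean of Aqp8 was at ZT0 and that of Aqp11 at ZT12. They are RefSeq windows on GRCm38.p6 that begin 250 bases before the RefSeq start and stop before the first exon annotated in GENCODE M21, written 5' to 3' on the strand of the gene: chr7:123462044-123462290 on the forward strand for Aqp8 and chr7:97738290-97738497 on the reverse strand for Aqp11. Capitals mark any match, on either strand, to 1 of 6 motifs.
Aqp8: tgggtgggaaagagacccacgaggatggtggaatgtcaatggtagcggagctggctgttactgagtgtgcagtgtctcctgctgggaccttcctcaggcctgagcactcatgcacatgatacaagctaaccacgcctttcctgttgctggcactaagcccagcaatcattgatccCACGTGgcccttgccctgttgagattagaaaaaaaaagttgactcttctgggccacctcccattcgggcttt
Aqp11: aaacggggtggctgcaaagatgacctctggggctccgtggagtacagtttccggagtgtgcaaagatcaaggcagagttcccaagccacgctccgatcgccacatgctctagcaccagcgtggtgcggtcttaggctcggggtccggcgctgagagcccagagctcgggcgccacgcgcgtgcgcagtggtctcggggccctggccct
The motifs were the E-box CACGTG, the D-box TTATGTAA, the TCF element ATCAAAG, the HNF4 element CAAAGTCCA, the forkhead element TGTTTAC and the insulin response element TGTTTTC, none of which contains another. The E-box is the site bound by the clock proteins CLOCK and BMAL1, among other factors.

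The motifs were searched in the whole RefSeq windows of 300 bases, which end 50 bases after the start and of which the printed stretches are a part. The Aqp8 window held 1 match, the E-box CACGTG, which begins 75 bases before the RefSeq start. That motif occurs in 7.15% of all 32851 RefSeq windows of 300 bases. The Aqp11 window held no match to any of the 6 motifs, nor did the first of both RefSeq windows of Aqp9. The second Aqp9 window held 1 match, to the insulin response element TGTTTTC, which is in 7.35% of all windows. A match describes letters in this stretch and is not evidence of binding.

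Aqp9 showed a smaller swing over the day with another timing. The gene lies on the reverse strand of chromosome 9 (chr9:71110659-71168682). Its levels were 91.3, 130 and 188 CPM at ZT0, 208 and 217 CPM at ZT6, 158, 177 and 235 CPM at ZT12, and 110 and 116 CPM at ZT18. The means ran from 213 ± 6.28 CPM at ZT6 (SD, n = 2) through 190 ± 40.0 CPM at ZT12 (SD, n = 3) and 136 ± 48.4 CPM at ZT0 (SD, n = 3) to 113 ± 4.35 CPM at ZT18 (SD, n = 2), and each neighbouring pair in that order overlapped. Both ZT18 libraries lay below both ZT6 libraries, as held for 36.9% of all genes, with a fitted log2 difference of -0.84 ± 0.27 (SE), and of -0.90 without library ZT18B. ZT12 exceeded ZT0 by 0.35 ± 0.22 (log2, SE), and the 3 libraries of each overlapped. Between libraries of the same letter, ZT12 was the higher in 3 of 3 pairs, as for 32.1% of all genes, and with the letter as a block the difference was 0.37 and still did not pass the threshold. The fitted wave had an amplitude of 0.45 (log2) with its maximum at ZT7.5.

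Aqp11 was measured at 24.6, 33.7 and 33.9 CPM at ZT0, 42.3 and 37.9 CPM at ZT6, 46.7, 59.6 and 73.3 CPM at ZT12, and 31.1 and 41.5 CPM at ZT18. Every ZT12 library was above all 7 others, as held for 4.54% of all genes, and the ranges at ZT6, ZT18 and ZT0 overlapped between neighbours in that order. The means were 59.9 ± 13.3 CPM at ZT12 and 30.8 ± 5.33 CPM at ZT0 (SD, n = 3 each), with a fitted log2 difference of 0.82 ± 0.20 (SE), that is 1.77-fold higher at ZT12. This call passed the threshold in the fit over all genes but was lost in 10 of 19 alternatives, among them 9 of the 10 that left out 1 library, while the estimate stayed between 0.72 and 0.96. The gene lies on the reverse strand of chromosome 7 (chr7:97724006-97738289).

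Aqp4 was scarce, with 238 UMIs in all 18378 cells. Its levels were 6.11, 4.46 and 2.19 CPM at ZT0, 4.67 and 5.41 CPM at ZT6, 6.19, 9.66 and 4.02 CPM at ZT12, and 7.54 and 3.50 CPM at ZT18. The 4 times overlapped, and the ZT12 against ZT0 log2 difference of 0.63 ± 0.44 (SE) was 0.02 without library ZT12B. No difference between times was detectable for Aqp4. The gene lies on the reverse strand of chromosome 18 (chr18:15389496-15410982).

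Aqp1 (forward strand, chr6:55336432-55348555) was listed at 0 in every cell. Over the 43375448 UMIs of the tables, a count of 0 allows up to 0.0692 CPM at a limit of 3 UMIs, and between 0.420 and 2.06 CPM within single libraries. Aqp1 was 1 of 534 entries, out of 14811, at 0 in every cell. In the marker lists of other liver cells, the entries at 0 were 2 of 8 for endothelial cells (Clec4g and Ptprb), 4 of 8 for macrophages (Clec4f, C1qa, C1qb and Csf1r) and 5 of 7 for lymphocytes, while Pecam1, another endothelial marker, had 190 UMIs. The lists of bile duct, red and stellate cells had 0 of 5, 0 of 5 and 0 of 8 entries at 0. The filter that the authors applied to cells is not given in the sources used here, so the limits hold for the deposited cells alone, and whether the 0 was set by the cells or by a step before deposit cannot be told apart.

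**Figure D1:**
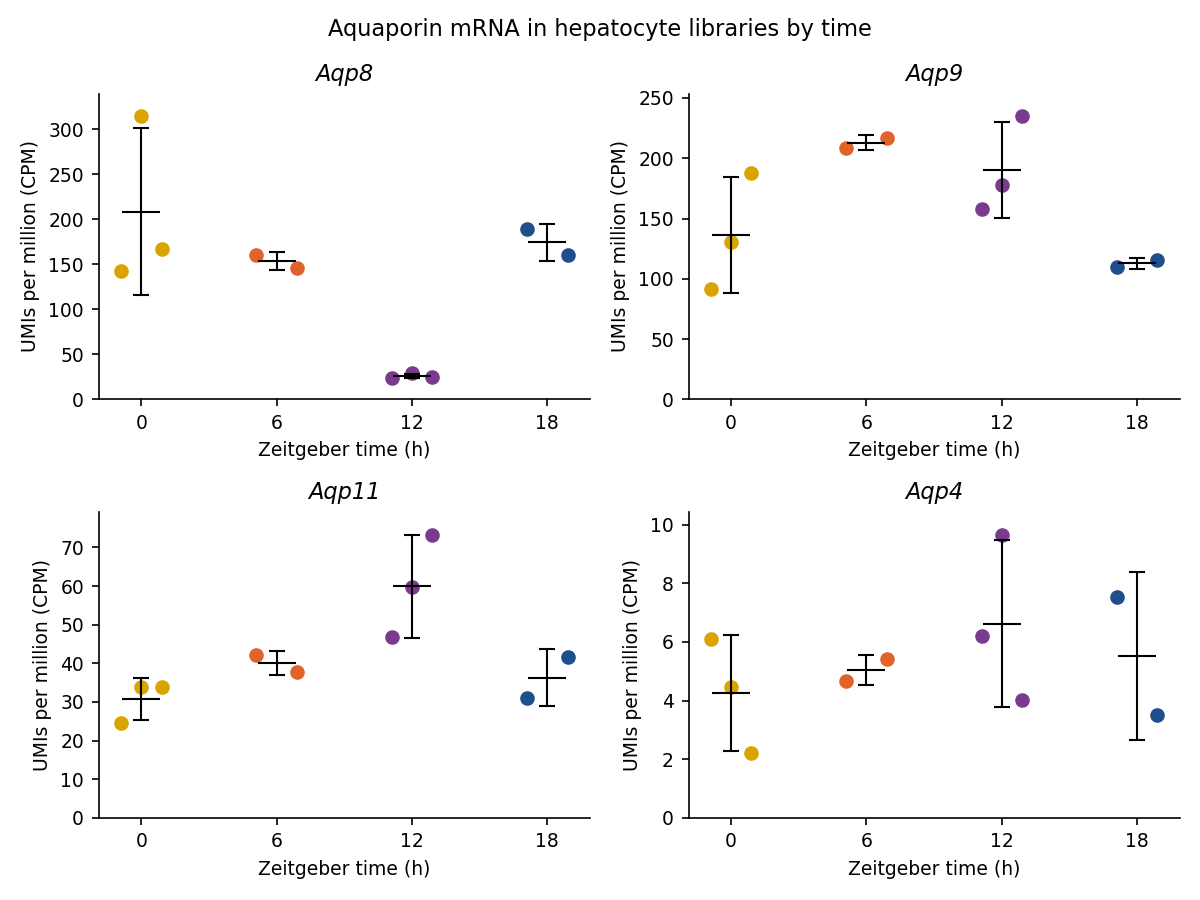
Aquaporin mRNA levels (CPM, vertical axes starting at 0) against zeitgeber time in hours, with 1 point per library and a bar for the mean ± SD (n = 3 at ZT0 and ZT12, n = 2 at ZT6 and ZT18). Aqp8 lies at 24.1 to 28.8 CPM in the 3 ZT12 libraries and at 143 to 314 CPM in the other 7, and Aqp11 is highest in the ZT12 libraries.

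Seen as a family, the make-up of aquaporin mRNA in these hepatocytes differed most at ZT12. Of the aquaporin UMIs of a library, Aqp8 gave 9.33% ± 1.76 at ZT12, against 54.0% ± 11.2 at ZT0, 37.3% ± 1.87 at ZT6 and 52.9% ± 4.34 at ZT18 (SD, n = 3, 3, 2 and 2). The Aqp9 share was 67.1% ± 2.68, 36.5% ± 10.6, 51.7% ± 2.33 and 34.3% ± 2.53 in the same order. The shares of a library add up to the whole, so the Aqp9 share moves with that of Aqp8, while in CPM Aqp9 had its highest mean at ZT6 and not at ZT12 (213 against 190 CPM, overlapping). The Aqp11 share at ZT12 was 21.1% ± 1.05, against 6.99% to 12.9% in the libraries of the other times. These shares are compared between times for the same gene and do not rank the genes, because mRNAs can differ in how well they are captured.

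The summed aquaporin level moved less than its make-up. It was lowest at ZT12, with 283 ± 51.2 CPM, against 380 ± 109 CPM at ZT0, 411 ± 6.43 CPM at ZT6 and 329 ± 11.6 CPM at ZT18 (SD, n as before). The ZT12 libraries, from 235 to 337 CPM, overlapped the ZT0 libraries, from 265 to 483 CPM. The log2 ratio of Aqp8 to Aqp9 UMIs was -2.86 ± 0.34 at ZT12, 0.59 ± 0.72 at ZT0, -0.47 ± 0.14 at ZT6 and 0.63 ± 0.22 at ZT18 (SD). Its highest value at ZT12, -2.62, lay below its lowest value elsewhere, -0.57.

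Along the lobule Aqp8 and Aqp9 ran in opposite directions. Aqp8 was higher in the periportal than in the pericentral zone in 10 of 10 libraries, with a log2 difference of 1.01 ± 0.11 (SE), a 2.02-fold difference. The pericentral values ran from 7.83 to 205 CPM and the periportal ones from 24.6 to 351 CPM over the 10 libraries, a spread that includes all 4 times. The middle zone averaged 161 ± 112 CPM and the periportal zone 161 ± 103 CPM (SD, n = 10), against 86.7 ± 62.6 CPM in the pericentral zone. By layer, Aqp8 averaged 54.3 CPM in layer 1, 98.3 in layer 2, 131 in layer 3, and between 154 and 170 CPM in layers 4 to 8. The profile was thus a pericentral low and a plateau rather than a rise to the portal end: the layer of the highest value was 4 or 5 in 5 libraries and 6 or 7 in the other 5.

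Aqp9 was higher in the pericentral zone in 10 of 10 libraries, with a log2 difference of -1.30 ± 0.09 (periportal minus pericentral, SE), that is 2.46-fold lower periportal. The pericentral values were 148 to 366 CPM and the periportal ones 53.2 to 126 CPM, across all 4 times. For 12.1% of all genes the periportal and pericentral zones differed the same way in all 10 libraries. The mean was lower in each layer than in the one before it, from 284 CPM in layer 1 through 182 CPM in layer 4 to 86.0 CPM in layer 8, and layers 1 to 3 held the highest value in 9 of 10 libraries. Layer 1 held 22.1% of the Aqp9 UMIs and layer 8 held 7.26%. For Aqp8 these shares were 4.94% and 15.2%.

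Aqp11 had the shallowest slope, with a periportal excess of 0.39 ± 0.09 (log2, SE), 1.31-fold, seen in 8 of 10 libraries. Zone means were 37.5 ± 10.4 CPM pericentral, 41.5 ± 16.3 CPM in the middle and 47.8 ± 19.6 CPM periportal (SD, n = 10). The call of this difference was lost when cells with at least 3000 UMIs were used alone, where the estimate was 0.33.

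Aqp4 lay mostly on the portal side. Of its 238 UMIs, 7 were pericentral, 51 in the middle zone and 180 periportal, and the counts by layer from 1 to 8 were 1, 1, 7, 12, 30, 37, 73 and 77. The periportal level exceeded the pericentral one in 10 of 10 libraries, and 6 of those libraries had 0 pericentral UMIs. The ratio of the pooled counts was 25.0, with an exact 95% interval of 11.9 to 63.0 that covers counting error only. At ZT6 the pericentral count was 0 against 31 periportal UMIs, so Aqp4 was at least 10.2-fold higher periportal there, with a limit of 3 UMIs over the group. The fitted log2 difference over all libraries was 4.49 ± 0.33 (SE), and its size depends on how the low pericentral counts are treated.

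Bile duct cells line the portal tracts, and the summed level of the 5 cholangiocyte markers with an entry also differed between zones, with a median of 5.99 CPM (1.57 to 22.7) pericentral and 46.4 CPM (13.0 to 218) periportal. Most of that sum was Spp1 (987 UMIs) and Sox9 (565 UMIs), whereas the defining markers Krt19, Krt7 and Epcam had 2, 3 and 3 UMIs in all cells. Of the 217 cells with an Aqp4 UMI, 30 (13.8%) also had a UMI of a cholangiocyte marker, against 235 (10.3%) of the 2292 cells of layer 8. The share was above that of layer 8 in 5 libraries and below it in the other 5, and ZT0A and ZT12B gave 20 of the 30 cells. The median cell with an Aqp4 UMI also held more UMIs than that of layer 8 in 8 of 10 libraries, and the part of this depth in the shares was not tested. Without all cells that held such a UMI, the Aqp4 log2 difference was 4.37 ± 0.34 (SE).

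The mitochondrial share of UMIs also differed with zone. It was higher periportal than pericentral in 10 of 10 libraries, at 12% to 23.1% pericentral and 14.0% to 25.3% periportal. With mitochondrial genes left out, the periportal minus pericentral log2 differences were 1.02 for Aqp8, -1.30 for Aqp9, 0.39 for Aqp11 and 4.49 for Aqp4.

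**Figure D2:**
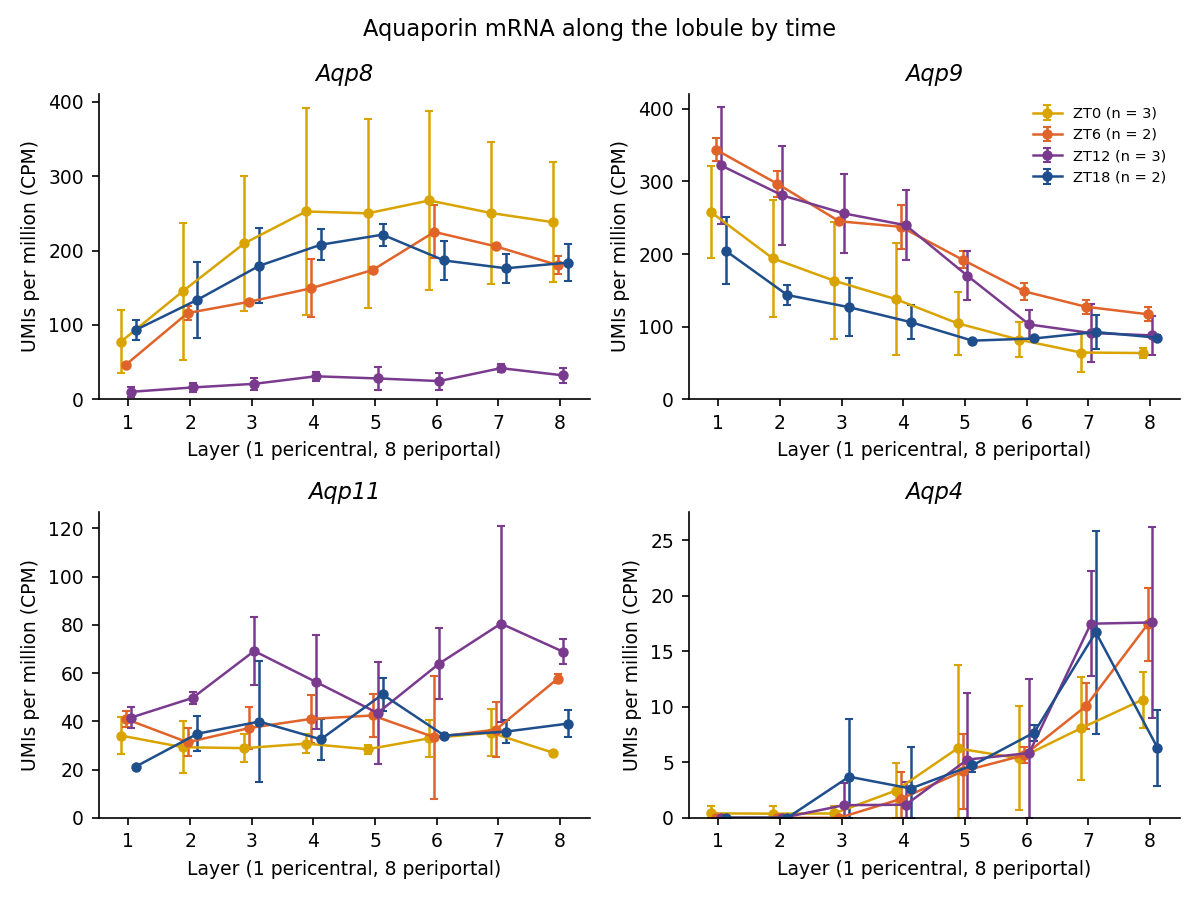
Mean aquaporin level (CPM, vertical axes starting at 0) in 8 layers from pericentral (1) to periportal (8), with 1 line per zeitgeber time and bars of ± SD over libraries, whose lower ends stop at 0. Aqp9 is highest in layer 1 at every time, Aqp8 is lowest in layer 1 at every time and lies low throughout at ZT12, and Aqp4 is near 0 in layers 1 and 2.

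Whether the zonal slope of the aquaporins changed with the time of day was tested with the interaction of zone with a 24-h wave. This contrast is neither the time nor the zone contrast. It uses the same libraries from which the members were proposed, so its independence of their choice cannot be shown. No interaction was detected. The adjusted p (edgeR's quasi-likelihood test, Benjamini-Hochberg over 8906 genes) was 0.824 for Aqp8, 0.934 for Aqp9, 0.909 for Aqp11 and 0.910 for Aqp4, and 0 of the 4 had an unadjusted p under 0.05. DESeq2 called 0 of the 4 as well. Over all genes 3 were called (0.0337%), 541 had an unadjusted p under 0.05, and DESeq2 called 0. The fitted log2 amplitude of the interaction was 0.34 for Aqp8, 0.18 for Aqp9, 0.20 for Aqp11 and 1.40 for Aqp4.

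The zone difference was also fitted at each time on its own, in another model than that test. The periportal minus pericentral log2 difference of Aqp8 was 0.61 ± 0.20 at ZT18, 1.07 ± 0.15 at ZT0, 1.28 ± 0.21 at ZT6 and 1.09 ± 0.30 at ZT12 (SE). For Aqp9 it was -0.80 ± 0.18, -1.52 ± 0.13, -1.19 ± 0.16 and -1.45 ± 0.15 in the same order. For Aqp11 it was 0.36 ± 0.24, 0.18 ± 0.16, 0.51 ± 0.22 and 0.54 ± 0.16. For Aqp4 it was 3.50 ± 0.76 at ZT18, 4.13 ± 0.55 at ZT0 and 4.84 ± 0.60 at ZT12, and at ZT6, with 0 pericentral UMIs, only the bound given above holds. The differences of Aqp8 and Aqp9 were smallest in size at ZT18, a contrast that was not tested on its own. In library ZT18A, which lacks the haemoglobin signal of ZT18B, Aqp8 was at 152 CPM pericentral and 197 CPM periportal, and in ZT18B at 107 and 172 CPM. For Aqp9 these values were 168 and 85.3 CPM in ZT18A, and 157 and 90.8 CPM in ZT18B.

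The day-time swing of Aqp8 was present in each zone. The mean at ZT0 was 130 CPM pericentral, 254 CPM in the middle and 249 CPM periportal, and at ZT12 it was 14.1, 30.3 and 32.9 CPM. The ratio of the ZT0 to the ZT12 mean was thus 9.16, 8.36 and 7.57. For Aqp11 the ratio of the ZT12 to the ZT0 mean was 1.62 pericentral, 1.89 in the middle and 2.25 periportal, without a detected interaction. In each library the log2 ratio of Aqp8 to Aqp9 was lower in the pericentral than in the periportal zone. Its means were -0.79 pericentral and 1.82 periportal at ZT0, and -4.46 and -1.47 at ZT12, so that time and zone together moved it over the range from -5.55 (library ZT12C, pericentral) to 2.19 (library ZT0B, periportal). The pericentral value of ZT12C rests on 5 Aqp8 UMIs.

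**Figure D3:**
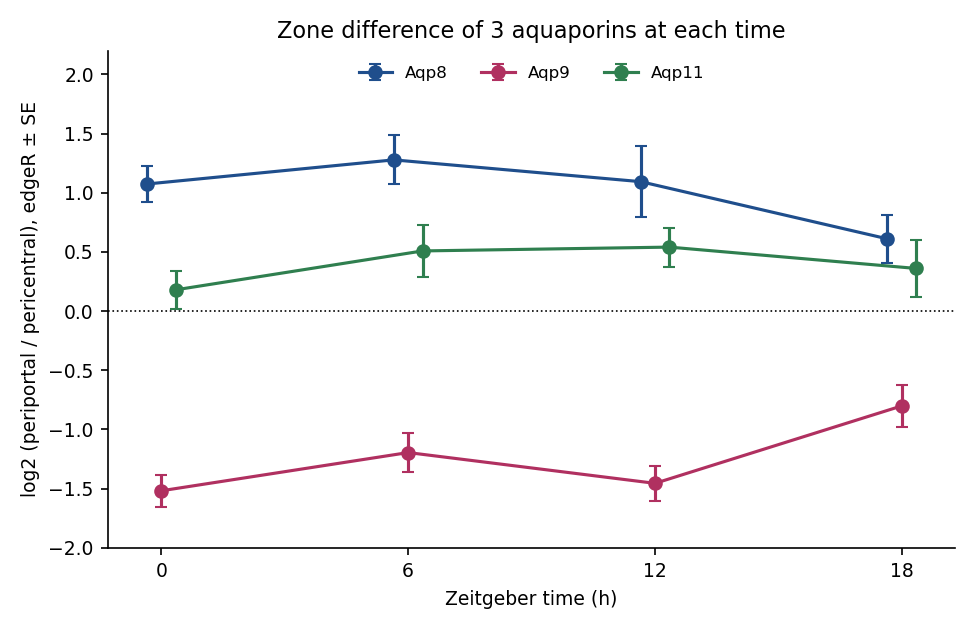
Log2 difference between the periportal and pericentral zones at each zeitgeber time for Aqp8, Aqp9 and Aqp11, as fitted by edgeR with the library as a block, with bars of ± SE. Aqp8 and Aqp11 lie above 0 and Aqp9 below 0 at all 4 times.

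**Figure D4:**
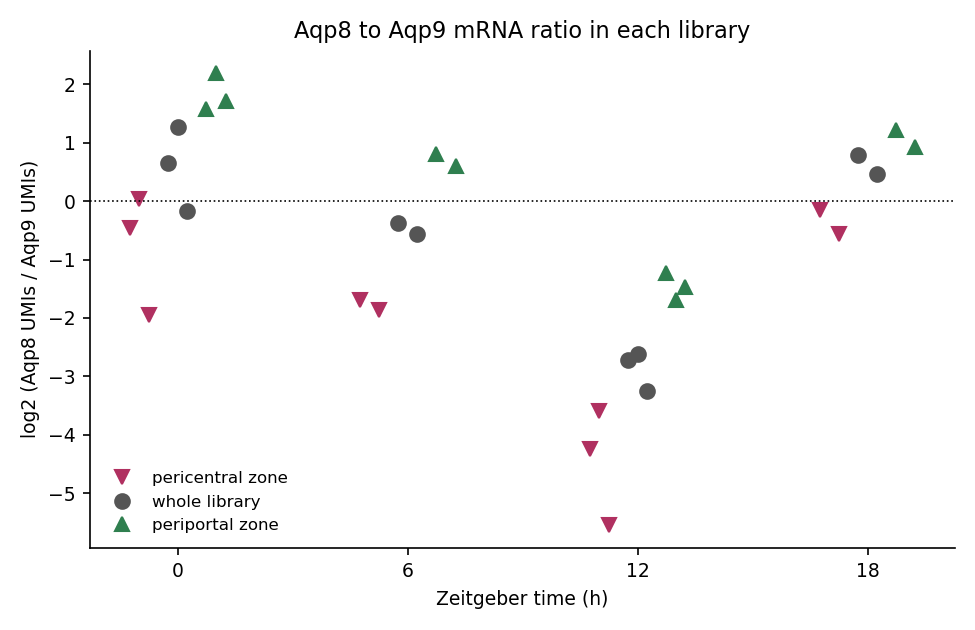
Log2 ratio of Aqp8 to Aqp9 UMIs in each library against zeitgeber time in hours, for the pericentral zone, the whole library and the periportal zone. At every time the periportal points lie above the pericentral ones, and all ZT12 points lie below 0.

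The genes whose level followed each aquaporin most closely were ranked by Pearson's r of log2(CPM + 1) over 30 sums (10 libraries in 3 zones), among 4341 genes with at least 20 CPM. The sums share libraries and depth, so r is a description and carries no test. Closest to Aqp8 were Cldn1, a tight junction claudin (r = 0.915), Slc30a10, a manganese exporter (0.880), Psen2, a subunit of gamma-secretase (0.856), the gene listed as adck3 (0.840) and Serpina1d, an alpha-1-antitrypsin gene that has near-identical copies, which makes its count uncertain (0.839).

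Among the 5 closest to Aqp9 were 1810058I24Rik (r = 0.932), Rnase4, a secreted ribonuclease (0.931), Rdh16, a retinol dehydrogenase (0.898), and Cdk6, a cell cycle kinase (0.895). Among the 5 closest to Aqp11 were Pptc7, a mitochondrial phosphatase (r = 0.819), Camk2n1, an inhibitor of CaM kinase II (0.811), St3gal5, which makes the ganglioside GM3 (0.807), and Etnk2, an ethanolamine kinase (0.806).

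Glycerol that enters through Aqp9 is phosphorylated, oxidized and turned into glucose. The 10 genes tested were those of that route and Pck1, which acts in glucose synthesis before glycerol joins it. A rhythm was called for 2 of them (5.13% of all genes), Pck1 and Slc37a4. The same 2 were higher at ZT12 than at ZT0 and 0 were lower (1.74% and 1.7% of all genes). By zone, 6 were higher periportal, Pck1 among them, and 2 higher pericentral (11.9% and 12.7% of all genes). The median zone difference of the list was 0.29 (log2), against -0.01 over all genes. Pck1, which makes phosphoenolpyruvate, was at 2988 ± 504 CPM at ZT12 against 909 ± 145 CPM at ZT0 (SD, n = 3 each), a log2 difference of 1.58 ± 0.26 (SE, adjusted p = 0.00353 by edgeR). Here and in the lists below, the genes were named from the same data that gave their adjusted p. These values are therefore a description and not a separate test. Slc37a4, the glucose 6-phosphate transporter, was higher at ZT12 by 1.03 ± 0.20 (log2, SE). Fbp1, an enzyme of glucose synthesis, was higher periportal by 0.95 ± 0.07 (log2, SE), in 10 of 10 libraries. The pericentral members of the list were Gpd1 and Gpd2, the glycerol 3-phosphate dehydrogenases, with log2 differences of -0.25 ± 0.08 and -0.74 ± 0.14 (periportal minus pericentral, SE). Gk, the kinase that traps glycerol in the cell, was not called for zone (-0.11 ± 0.08) or for ZT12 against ZT0 (0.29 ± 0.21).

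Of 10 tested transporters of the bile canaliculus, 4 had a rhythm (5.13% of all genes), and 2 were higher and 0 lower at ZT12 (1.74% and 1.7%). By zone, 2 were higher periportal and 6 higher pericentral (11.9% and 12.7% of all genes). Abcg5 and Abcg8, which form the sterol exporter, were higher at ZT12 than at ZT0 by 1.67 ± 0.19 and 1.37 ± 0.23 (log2, SE), with adjusted p of 0.000227 and 0.00376 by edgeR. Both were also higher pericentral, with differences of -0.49 ± 0.14 and -0.73 ± 0.10 (periportal minus pericentral). With the letter of the library as a block, or with DESeq2, 5 of the 10 differed between ZT12 and ZT0. Abcb11, the bile salt export pump, was higher periportal by 0.39 ± 0.07, as Aqp8 was, and its ZT12 against ZT0 difference of -0.79 ± 0.22 did not pass the threshold (adjusted p = 0.0704 by edgeR). Without both ZT18 libraries 2 of the 4 rhythm calls were left, and those of Abcb4 and Abcc2 were lost in 10 and 8 of 20 alternatives.

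Of 15 tested genes of cell volume control and osmolyte transport, 0 had a rhythm and 0 differed between ZT12 and ZT0 by edgeR (5.13% and 3.44% of all genes). In either comparison 0 had an unadjusted p under 0.05, and DESeq2 called 0. Since 0 of 15 is near the all-gene shares, nothing is read from these counts. By zone, 4 were higher periportal and 2 higher pericentral (11.9% and 12.7% of all genes). Slc6a13, a transporter of GABA and taurine, was higher periportal by 0.47 ± 0.07 (log2, SE) in 10 of 10 libraries. Sgk1, a kinase that responds to cell shrinkage, was higher periportal by 0.85 ± 0.18. With DESeq2, and with cells of at least 3000 UMIs alone, the list had 3 zone calls in place of 6.

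Hydrogen peroxide can pass Aqp8, and 11 genes of its removal or, for Sod1 and Sod2, its formation were tested. By edgeR, 0 had a rhythm and 0 differed between ZT12 and ZT0 (5.13% and 3.44% of all genes). In either comparison 0 had an unadjusted p under 0.05, and DESeq2 called 0. Since 0 of 11 is near the all-gene shares, nothing is read from these counts. By zone, 2 were higher periportal and 4, Sod1 among them, higher pericentral (11.9% and 12.7% of all genes). Prdx4, the peroxiredoxin of the endoplasmic reticulum, was higher periportal by 0.63 ± 0.08 (log2, SE), while Prdx3 and Prdx6 were higher pericentral, with differences of -0.43 ± 0.08 and -0.41 ± 0.06.

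Urea and ammonia can pass Aqp9 and Aqp8, and 9 genes of their metabolism were tested for zone. Of these, 5 were higher periportal and 3 higher pericentral (11.9% and 12.7% of all genes). Cps1 and Arg1 of the urea cycle were higher periportal by 0.75 ± 0.08 and 0.76 ± 0.10 (log2, SE), as was Gls2, the liver glutaminase, by 2.90 ± 0.20. Glul, glutamine synthetase, and Rhbg, an ammonia channel, were higher pericentral, with differences of -4.05 ± 0.21 and -3.10 ± 0.30. Of 11 tested for time, 1 had a rhythm (5.13% of all genes), Arg1 with its peak at ZT17.7 (adjusted p = 0.0370 by edgeR). This call was lost in 9 of 20 alternatives: without both ZT18 libraries, with the sample index as a block, and without 1 library in 7 cases.

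Of 12 genes of insulin signalling and PPAR regulation, the inputs known to act on Aqp9, 4 had a rhythm (5.13% of all genes). At ZT12, 3 were higher and 1 lower (1.74% and 1.7% of all genes). By zone, 1 was higher periportal and 3 higher pericentral (11.9% and 12.7% of all genes). Foxo1, the transcription factor that insulin keeps out of the nucleus, was at 77.0 ± 17.9 CPM at ZT12 and 28.3 ± 3.23 CPM at ZT0 (SD, n = 3 each), a log2 difference of 1.28 ± 0.19 (SE, adjusted p = 0.00153 by edgeR). Ppargc1a, a coactivator of glucose synthesis genes, was higher at ZT12 by 1.22 ± 0.22 and higher periportal by 1.73 ± 0.16. Ppard, a fatty acid receptor, was the one lower at ZT12, with a difference of -2.13 ± 0.27, and Pparg was higher pericentral, with a difference of -3.89 ± 0.33.

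**Figure D5:**
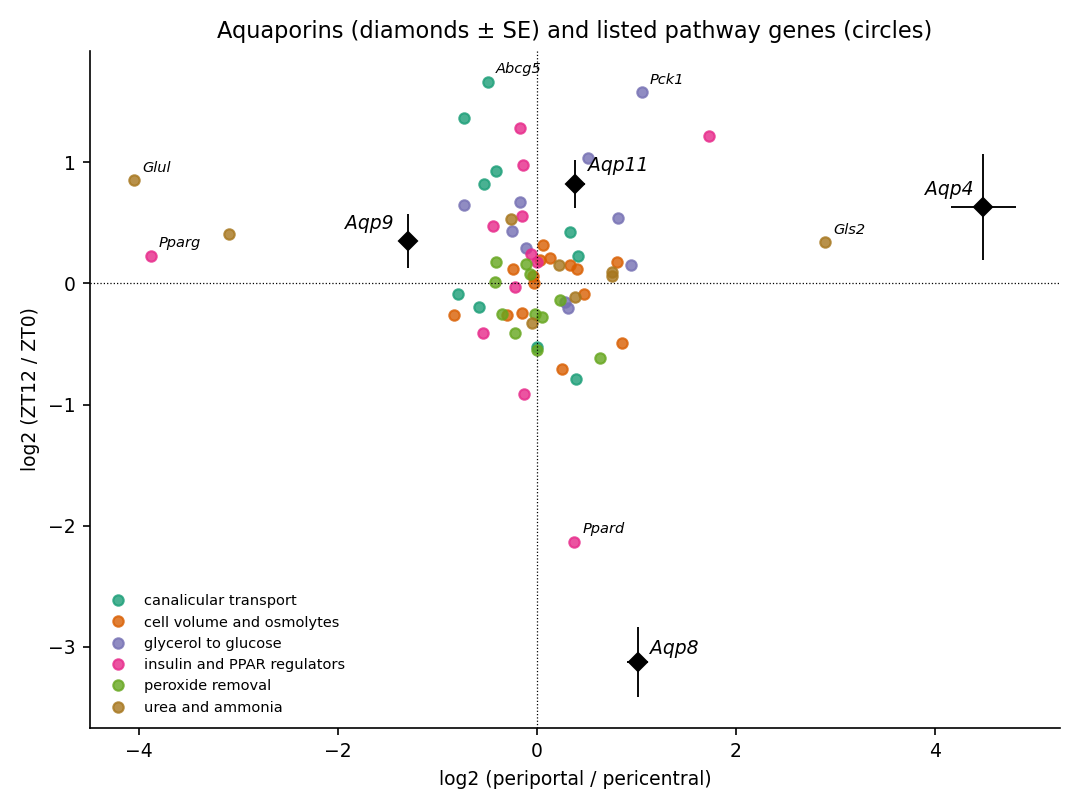
Log2 difference between ZT12 and ZT0 (vertical) against the log2 difference between the periportal and pericentral zones (horizontal), with 4 aquaporins as diamonds ± SE and the tested genes of 6 pathway lists as circles. Aqp8 lies lowest of all plotted genes on the vertical scale, at -3.13. On the horizontal scale of the zone difference, Aqp9 and Aqp4 lie on opposite sides of 0, at -1.30 and 4.49.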

How the data were processed

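The deposited values are UMI counts per gene and cell, which the authors made from 10x libraries. The submitters' processing notes name Cell Ranger and the builds mm10 and hg19, without role or version, and the filter on cells is not given in the sources used here. Values are whole numbers with unequal totals, so they were used as raw counts. Groups came from the sample titles. Counts were added up over all cells of a library, or of a zone in it, and fitted with edgeR 4.0.16 (R 4.3.3, glmQLFit and glmQLFTest, TMM scaling, Benjamini-Hochberg adjustment over all genes) where a gene averaged 3 CPM or more. DESeq2 1.42.0 was an alternative. Rhythm was a cosine and sine of 24 h, and ZT12 was compared with ZT0 and ZT18 with ZT6 in a model with 1 mean per time. Zone fits had the library as a block, and zone by time was the product of zone with both waves. An SE is the log2 difference over the root of its F.

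Zones came from landmark z-scores of log2(1 + UMIs per 10000), 8 genes a side, and landmarks were left out of zone counts. Scores from odd and even landmarks correlated with r from 0.683 to 0.847 within libraries. All cells were kept, no doublet caller was run, and an alternative dropped the 5% of cells deepest in UMIs. Coordinates are from GENCODE M21 (GRCm38) and promoters from RefSeq (GRCm38.p6). All 5 members were matched by symbol in GENCODE. Members, lists and markers were chosen with earlier results of these data known. Named genes are the members, the 5 most alike genes for each member over 10 CPM, and in each list up to 3 genes per direction with the largest fold among those past the threshold in the rhythm or zone test. A few genes that this rule names are not reported here. Gk, Abcc2, Sod1, Sod2, the cholangiocyte, haemoglobin and Pecam1 values and the named markers at 0 fall outside that rule. They were chosen after their values were seen.

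ZT0 and ZT12 libraries with the same letter deviated together from their group means (correlations of 0.239 for A, 0.420 for B and 0.473 for C). The letter may therefore pair these 6 libraries, and same-letter libraries among them also share a digit of the sample index. The main fits over time had no such block, so their SEs and calls leave this pairing out. With the letter as a block, an alternative, the ZT12 against ZT0 log2 differences were -3.11 for Aqp8, 0.37 for Aqp9 and 0.81 for Aqp11. Replicates of a group were not copies of each other (chi-square per degree of freedom of 5.76 to 68.8). The fits were also run on simulated counts with known changes. The share recovered is not reported here, so no smallest detectable change is given for any comparison.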

Additional observations from a re-analysis of the deposited data

How the results depend on the processing

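Among the aquaporins, no difference that had passed the threshold changed sign in any alternative, whether scaling, filter, cell choice, landmarks, tool, block or left-out library. The ZT18 against ZT6 differences of Aqp11 and Aqp4, which had not passed, took both signs, from -0.31 to 0.15 and from -0.40 to 0.66. Aqp9 and Aqp11 gained a rhythm call with DESeq2 and with the replicate block, and Aqp11 also with the sample index as a block. Of the values of single members recomputed, 381 stayed within 1 SE (rhythm amplitudes within 0.2, zone by time on the same side of the threshold) and 18 did not, and in no alternative did a member pass for zone by time. Depth limits Aqp4 most, since 7 of its 238 UMIs are pericentral and its zone ratio has a wide counting interval.

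The number of genes called moved more. For rhythm it was 457, and 791 with DESeq2, 283 at a minimum of 20 CPM, 231 with both ZT18 libraries left out (chosen after seeing the data), 709 without a filter, and 228 to 465 with 1 library left out. For ZT12 against ZT0 it was 306, and 469 without a filter, 588 with the sample index as a block, and 214 to 314 with 1 library left out. For ZT18 against ZT6 it was 338, and 199 at a minimum of 20 CPM, 595 without a filter, and 50 to 494 with 1 library left out. For zone it was 2194, and 1212 with cells of at least 3000 UMIs, and 1974 to 2123 with 1 library left out. For zone by time it was 3, and 0 with DESeq2 and at 20 CPM, 32 with cells of at least 3000 UMIs, 5 with library size alone, 6 without mitochondrial genes, 39 without a filter, 1 with odd landmarks, 7 with narrower outer zones, and 0 to 36 with 1 library left out. The canalicular list had 5 zone calls in place of 8 with cells of at least 3000 UMIs. Apart from the counts that fewer libraries or cells lower by construction, the cause was not tested.

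With the replicate block, the calls were 503 for ZT12 against ZT0, 749 for rhythm and 733 for ZT18 against ZT6, where Aqp9 then passed. Outside the ZT0 and ZT12 libraries the letters are shared names only, with correlations from -0.035 to 0.107 for libraries of the same letter. Apart from the calls named, the block changed no call of an aquaporin.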
